A study of Mus musculus with 9 samples.

Results

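The genes described are 496 expressed genes of mouse chromosome 19, taken in the order of their start positions, of 49671 genes counted in the series. A gene was taken when the first chromosome entry of its row was 19 and it had 10 or more counts in at least 3 of the 9 libraries. This held for 508 of the 1080 genes of the chromosome. Of these, 12 were left out by name, namely Uhrf2, Il33 and every symbol that starts with Ifit, Rpl or Rps. Plekhs1 and 5 other members lay just inside the count rule, with a third-highest count of 10, and Gstp3, Gm24400 and Cyp2c23 just outside it, with 9. The members were thus chosen by their position and their counts, and the chromosome was picked with earlier results of these data known, so their position and detection are descriptions and not results. In the GENCODE M21 annotation of GRCm38, 494 members were found and all 494 lay on chromosome 19. Their annotation was protein coding for 443 members, and 255 members lay on the plus strand. The first member, Ighmbp2, began at position 3260924 and the last, Csf2ra, ended at 61228418.

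All 9 libraries were poly(A) RNA from untreated cultures of Panc02, a line of ductal adenocarcinoma cells from mouse pancreas. KO_1E7 was a single clone labelled as a VPAC2 knockout made with CRISPR-Cas9, where VPAC2 is the receptor for vasoactive intestinal peptide encoded by Vipr2. CRISPR_1G2 was a second single clone labelled wild type after CRISPR, although the series' design counts both clones as derived from knockout cells. The line called parental was unedited, and each of the 3 groups had 3 libraries. Each edited group is 1 clone, so a difference from the parental line that belongs to the clone and one that follows from editing cannot be told apart. Vipr2 itself had 1, 2 and 1 counts in KO_1E7 1, 2 and 3, 1, 13 and 12 counts in CRISPR_1G2 1, 2 and 3, and 6, 3 and 12 counts in parental 1, 2 and 3, too few to check the labels, and a small edit need not lower a transcript.

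Mouse chromosome 19 is the smallest mouse autosome. Its centromere lies at one end, and the stretch next to it is rich in short, densely packed genes that correspond to part of the long arm of human chromosome 11, while much of the rest corresponds to parts of human chromosomes 9 and 10. Gain or loss of a chromosome or of a stretch of it is common in cultured tumour lines. It usually moves the transcripts of many neighbouring genes a little, whereas a change at 1 promoter can move a single gene. RNA levels alone do not measure the number of DNA copies. Promoters rich in the dinucleotide CG are typical of widely used genes, and DNA methylation at such sites is one of the known ways to keep a promoter silent.

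The promoters below are those of the 4 members that the results below turn on most, As3mt, Cstf2t, Pdlim1 and Pdcd4, and of Borcs7, which precedes As3mt on the same strand. They were chosen after their values were seen. Each is the RefSeq promoter on GRCm38.p6, with 250 bases before and 50 after the start, written 5′ to 3′ on the strand of the gene, and capitals mark each CG. As3mt is the window chr19:46707208-46707507 on the plus strand, Borcs7 is chr19:46689656-46689955 on the plus strand, Cstf2t is chr19:31082591-31082890 on the plus strand, Pdlim1 is chr19:40271567-40271866 on the minus strand, and Pdcd4 is chr19:53891981-53892280 on the plus strand.
As3mt: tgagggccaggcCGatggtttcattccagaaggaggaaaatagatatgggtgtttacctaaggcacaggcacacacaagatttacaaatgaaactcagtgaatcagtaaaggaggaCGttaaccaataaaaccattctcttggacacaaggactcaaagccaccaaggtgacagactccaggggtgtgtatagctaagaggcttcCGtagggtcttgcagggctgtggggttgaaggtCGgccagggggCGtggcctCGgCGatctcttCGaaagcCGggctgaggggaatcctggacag
Borcs7: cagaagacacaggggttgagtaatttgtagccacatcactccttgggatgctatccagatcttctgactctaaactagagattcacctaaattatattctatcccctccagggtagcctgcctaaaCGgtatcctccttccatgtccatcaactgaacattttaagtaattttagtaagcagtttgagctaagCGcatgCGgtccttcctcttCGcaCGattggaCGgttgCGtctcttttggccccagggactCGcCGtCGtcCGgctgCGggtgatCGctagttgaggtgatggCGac
Cstf2t: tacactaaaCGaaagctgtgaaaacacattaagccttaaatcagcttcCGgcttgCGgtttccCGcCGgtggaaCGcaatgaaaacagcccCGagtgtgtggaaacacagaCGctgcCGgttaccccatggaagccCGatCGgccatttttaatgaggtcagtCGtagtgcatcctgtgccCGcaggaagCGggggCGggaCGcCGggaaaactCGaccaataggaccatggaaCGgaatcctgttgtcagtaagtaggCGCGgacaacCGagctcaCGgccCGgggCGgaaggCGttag
Pdlim1: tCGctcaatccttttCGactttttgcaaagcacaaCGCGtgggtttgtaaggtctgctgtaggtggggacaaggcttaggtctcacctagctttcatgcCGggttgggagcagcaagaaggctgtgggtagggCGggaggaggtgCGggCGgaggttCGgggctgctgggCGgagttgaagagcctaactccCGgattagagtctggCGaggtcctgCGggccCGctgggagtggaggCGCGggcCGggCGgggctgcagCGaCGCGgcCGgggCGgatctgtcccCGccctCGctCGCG
Pdcd4: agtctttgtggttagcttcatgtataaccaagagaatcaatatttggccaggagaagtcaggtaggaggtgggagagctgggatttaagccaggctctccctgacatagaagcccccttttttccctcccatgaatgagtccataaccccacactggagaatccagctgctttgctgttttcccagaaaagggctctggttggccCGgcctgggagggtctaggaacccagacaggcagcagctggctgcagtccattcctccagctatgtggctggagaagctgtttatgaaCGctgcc

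The motif searched was CG, which reads the same on both strands, and 99.4% of the 10494 promoters matched to tested genes held at least 1. As3mt held 9 CG, and 20.4% of those promoters held as few or fewer. Borcs7 held 14, Cstf2t 26 and Pdlim1 27. Pdcd4 held 2 CG, at or below which lay 4.47% of the promoters. A promoter was matched for 371 of the tested members, with a median of 21 CG beside 20 over all tested genes. The RefSeq start of Pdlim1 lay 226 bases from the 5′ end in the deposited tables and that of As3mt 15 bases, while the other starts were identical. No methylation was measured here.

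Counts on genes lay between 27898705 and 51878289 per library, and all genes of chromosome 19 took 3.37%, 3.41% and 3.38% of them in KO_1E7 1, 2 and 3, 3.23%, 3.29% and 3.05% in CRISPR_1G2 1, 2 and 3, and 3.77%, 3.61% and 3.06% in parental 1, 2 and 3. Parental 3 and CRISPR_1G2 3 stood apart from the other libraries of their groups on the first principal component, at -58.2 and -86.3, and held more RNA of the p53 targets Mdm2 and Cdkn1a and less of the sterol synthesis gene Hmgcs1. To a lesser degree KO_1E7 2 stood apart too, at 47.1 beside 66.9 and 68.3 in KO_1E7 1 and 3. The third library of each group carries the letters NSG in its column name, which the labels do not explain, and the other 6 carry strings that look like dates, which KO_1E7 1 shares with parental 1 and CRISPR_1G2 1 with parental 2. Markers of duct and simple epithelium summed to between 1290 and 2110 CPM in KO_1E7, 896 and 2110 CPM in CRISPR_1G2 and 1360 and 2050 CPM in parental libraries. CPM is the count of a gene scaled to the same fixed total in every library, with TMM factors. Of the 4 islet markers 3 were at 0 in every library. The acinar gene Ptf1a was at 0 in all 9, but the acinar gene Cela1 was higher in KO_1E7. Cela1 lay between 7.37 and 13.1 CPM in KO_1E7, 1.01 and 2.11 CPM in CRISPR_1G2 and 2.08 and 2.68 CPM in parental libraries. Fibroblast markers summed to between 19.3 and 26 CPM in KO_1E7, 24.8 and 47.5 CPM in CRISPR_1G2 and 16.9 and 25.8 CPM in parental. The immune gene Ptprc reached at most 3.85 CPM, in CRISPR_1G2 1. The part of these differences between libraries in the results below was not tested.

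Chromosome 19 as a whole was lower in CRISPR_1G2 than in the parental line by a small amount spread over most of its genes. The median log2 fold change of the 490 tested members, relative to the median of all 15766 tested genes, was -0.23 in CRISPR_1G2 against parental, and 377 members (76.9%) lay below that median of all genes. It was the lowest of 20 chromosomes, the others running from -0.10 for chromosome 3 to 0.14 for chromosome 16. In KO_1E7 against parental the median of the members was -0.08, with 58.8% of members below, and 5 chromosomes were lower in this comparison, which ran from -0.42 for chromosome 7 to 0.34 for chromosome 8. Between the clones, KO_1E7 against CRISPR_1G2, it was 0.10 and ranked 11 from the lowest. These medians are descriptions with no test, and the first pair of comparisons shares the parental libraries. In bulk RNA, fewer cells with a transcript and less of it per cell cannot be told apart.

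Each library was also set against the mean of the parental libraries on the log2 CPM scale, relative to its own median over all tested genes. By this measure chromosome 19 stood at -0.08, -0.10 and -0.11 in KO_1E7 1, 2 and 3, at -0.17, -0.18 and -0.27 in CRISPR_1G2 1, 2 and 3, and at 0.03, 0.01 and -0.04 in parental 1, 2 and 3. The 3 groups did not overlap, with CRISPR_1G2 lowest. Of libraries that share a string in their names, KO_1E7 1 and parental 1 stood at -0.08 and 0.03, and CRISPR_1G2 1 and parental 2 at -0.17 and 0.01. Among the third libraries, KO_1E7 and CRISPR_1G2 stood at -0.11 and -0.27 and parental at -0.04. The order was thus the same within these sets as over all libraries.

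**Figure D1:**
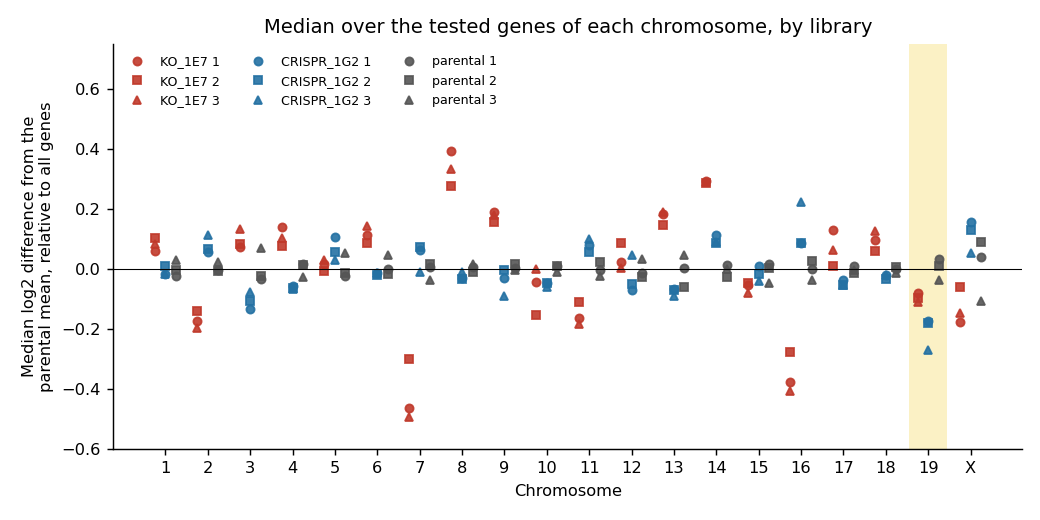
Median over the tested genes of each chromosome (horizontal axis) of the log2 difference from the parental mean, relative to all genes (vertical axis), with 1 point per library and colours for the groups. On the shaded chromosome 19 the CRISPR_1G2 libraries lie lowest, between -0.27 and -0.17, and in KO_1E7 several other chromosomes, such as 7 and 8, lie farther from 0 than chromosome 19.

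Along the chromosome CRISPR_1G2 had its lowest medians against parental in the gene-dense stretch next to the centromere, in windows of 5 Mb and of 10 Mb. In windows of 2.5 Mb the lowest was -0.68 from 30 to 32.5 Mb, over 6 members, and the 3 windows below 10 Mb stood at -0.39, -0.34 and -0.26. Lower than the last of these were also windows of 8 to 10 members farther out. They stood at -0.27 from 15 to 17.5 Mb, -0.29 from 37.5 to 40 Mb and -0.31 from 57.5 to 60 Mb. In windows of 5 Mb counted from position 0, the median relative to all genes in CRISPR_1G2 against parental was -0.39 over 55 members of the first window, 50 of them below, and -0.31 over 142 members from 5 to 10 Mb, 129 of them below. Beyond 10 Mb the windows lay between -0.27, from 35 to 40 Mb, and 0.04, from 20 to 25 Mb. In KO_1E7 against parental the first 2 windows stood at -0.14 and -0.18, the lowest was -0.22 from 35 to 40 Mb with 22 members, and the highest 0.05 from 50 to 55 Mb. KO_1E7 against CRISPR_1G2 had its highest window at 0.28 in the first 5 Mb, stood at 0.12 from 5 to 10 Mb and had its lowest at -0.08 from 20 to 25 Mb. In windows of 2.5 Mb its highest was 0.91 from 12.5 to 15 Mb, over 5 members.

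A split at 10 Mb, chosen after the windows were seen, put 197 members in the stretch next to the centromere and 293 beyond it. The proximal members stood at -0.10, -0.19 and -0.18 in KO_1E7 1, 2 and 3, at -0.25, -0.24 and -0.41 in CRISPR_1G2 1, 2 and 3, and at 0.04, 0.05 and -0.10 in parental 1, 2 and 3. CRISPR_1G2 lay below every library of the other groups, and KO_1E7 1 was level with parental 3. For the 293 members beyond 10 Mb the values were -0.06, -0.02 and -0.01 in KO_1E7, -0.14, -0.16 and -0.14 in CRISPR_1G2 and 0.03, -0.01 and -0.004 in parental 1, 2 and 3. There too CRISPR_1G2 lay below all other libraries. The proximal members had a median GC content of 55.5%, the rest 48.6% and all tested genes 49.3%. With the median of each of 10 bins of GC content removed from every gene, the first 2 windows of CRISPR_1G2 against parental stood at -0.39 and -0.30 and the whole chromosome at -0.23. The first 2 windows of KO_1E7 against parental moved closer to 0, at -0.08 and -0.09, and its window from 50 to 55 Mb moved below 0, at -0.06. The first 2 windows of KO_1E7 against CRISPR_1G2 were 0.36 and 0.21.

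**Figure D2:**
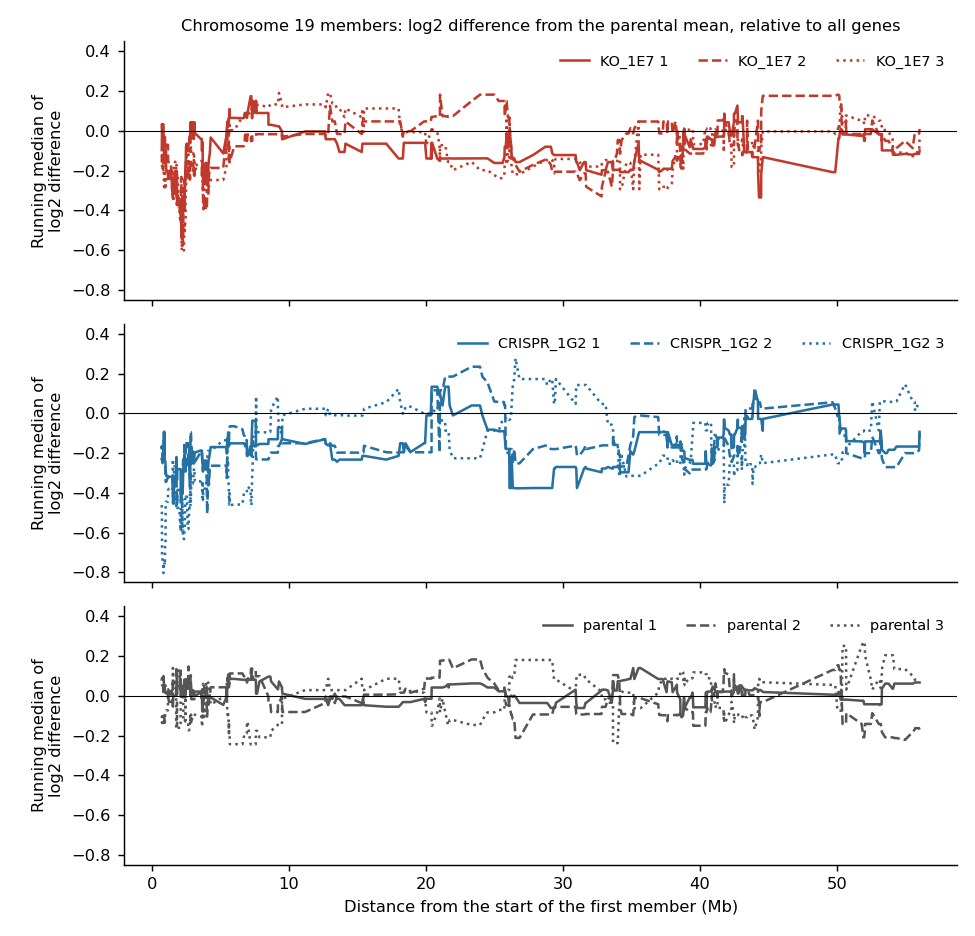
Running median over 25 neighbouring tested members of the log2 difference from the parental mean, relative to all genes (vertical axis), against distance in Mb from the start of the first member (horizontal axis), with 1 line per library and 1 panel per group. CRISPR_1G2 lines run below 0 over most of the length and lowest at the left end, where the proximal medians were -0.25, -0.24 and -0.41, and parental lines scatter around 0.

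Members whose libraries did not overlap between groups followed the same direction. In CRISPR_1G2 against parental, all 3 CRISPR_1G2 libraries lay below all 3 parental libraries for 84 members (17.1%), against 6.45% of all tested genes, and above them for 9 members (1.84%), against 6.64%. Among the proximal members 52 of 197 lay wholly below (26.4%), and among the rest 32 of 293 (10.9%). In KO_1E7 against parental, 102 members lay wholly below (20.8%, against 17.3% of all genes) and 56 wholly above (11.4%, against 17.2%). There too the share wholly below was larger among the proximal members, 56 of 197 (28.4%), than among the rest, 46 of 293 (15.7%). Wholly above were 18 proximal members (9.14%) and 38 of the rest (13.0%). None of these shares was corrected for GC content. That correction moved the 5 Mb windows below 10 Mb in KO_1E7 against parental from -0.14 and -0.18 to -0.08 and -0.09. For KO_1E7 against CRISPR_1G2 the numbers were 118 wholly above (24.1%, against 19.2%) and 58 wholly below (11.8%, against 19.4%). These counts describe the libraries, with no test over the members. Split into 3 groups by level, the members of low, middle and high RPKM had medians of -0.30, -0.15 and -0.25 in CRISPR_1G2 against parental, where RPKM is CPM per kilobase of exon.

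Single genes were tested with edgeR's quasi-likelihood F-test over all tested genes, with Benjamini-Hochberg adjustment and a threshold of 0.05. In KO_1E7 against parental 22 members passed, which is 4.49% of the members beside 5.42% of all tested genes. Of these 6 were higher and 16 lower, and of all genes 2.54% were higher and 2.87% lower. In CRISPR_1G2 against parental 3 members passed, all lower, or 0.612% beside 0.254% of all genes, and 0 were higher. An unadjusted p below 0.05 was reached by 105 of the 490 tested members in KO_1E7 against parental. It was reached by 72 in CRISPR_1G2 against parental and by 104 between the clones. Of all 15766 tested genes, 3735 (23.7%), 1218 (7.73%) and 4575 (29.0%) did so. The share of members was above that of all genes in CRISPR_1G2 against parental and below it in the other comparisons. KO_1E7 against CRISPR_1G2 gave 34 members, or 6.94% beside 12.7% of all genes. Of these 22 were higher and 12 lower, and of all genes 5.71% were higher and 7.03% lower. The shares called in either direction lay below those of all genes in KO_1E7 against parental and between the clones. DESeq2 gave 63, 16 (0 of them higher) and 73 members in the 3 comparisons, or 12.9%, 3.27% and 14.9%, beside 15.0%, 1.5% and 21.5% of all genes.

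The counts rested on few libraries. Without KO_1E7 1 or without KO_1E7 3, 1 member passed in KO_1E7 against parental, and without parental 1, 3 members did. As3mt was that 1 member, so each other call of KO_1E7 against parental given below was lost in both of those settings. Without CRISPR_1G2 1, CRISPR_1G2 2 or parental 2 the number was 11, without parental 3 it was 9, and without CRISPR_1G2 3 it was 47. Without parental 3 and CRISPR_1G2 3 together, 95 members passed in KO_1E7 against parental and 111 in KO_1E7 against CRISPR_1G2. The 3 calls of CRISPR_1G2 against parental became 0 without CRISPR_1G2 1 and 1 without CRISPR_1G2 2, parental 3 or any one of the KO_1E7 libraries. In KO_1E7 against CRISPR_1G2, 10 members passed without KO_1E7 1 or KO_1E7 3, 16 without CRISPR_1G2 1 or CRISPR_1G2 2 and 20 without parental 1. Those 10 were Cstf2t, Pdlim1, Pdcd4, Prune2, Gucy2g, Cdc42ep2, B230217O12Rik, Ablim1, Prdx5 and 2700081O15Rik in both settings, and they passed with any other library left out too. Each other call between the clones given below was lost without KO_1E7 1 and without KO_1E7 3.

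**Figure D3:**
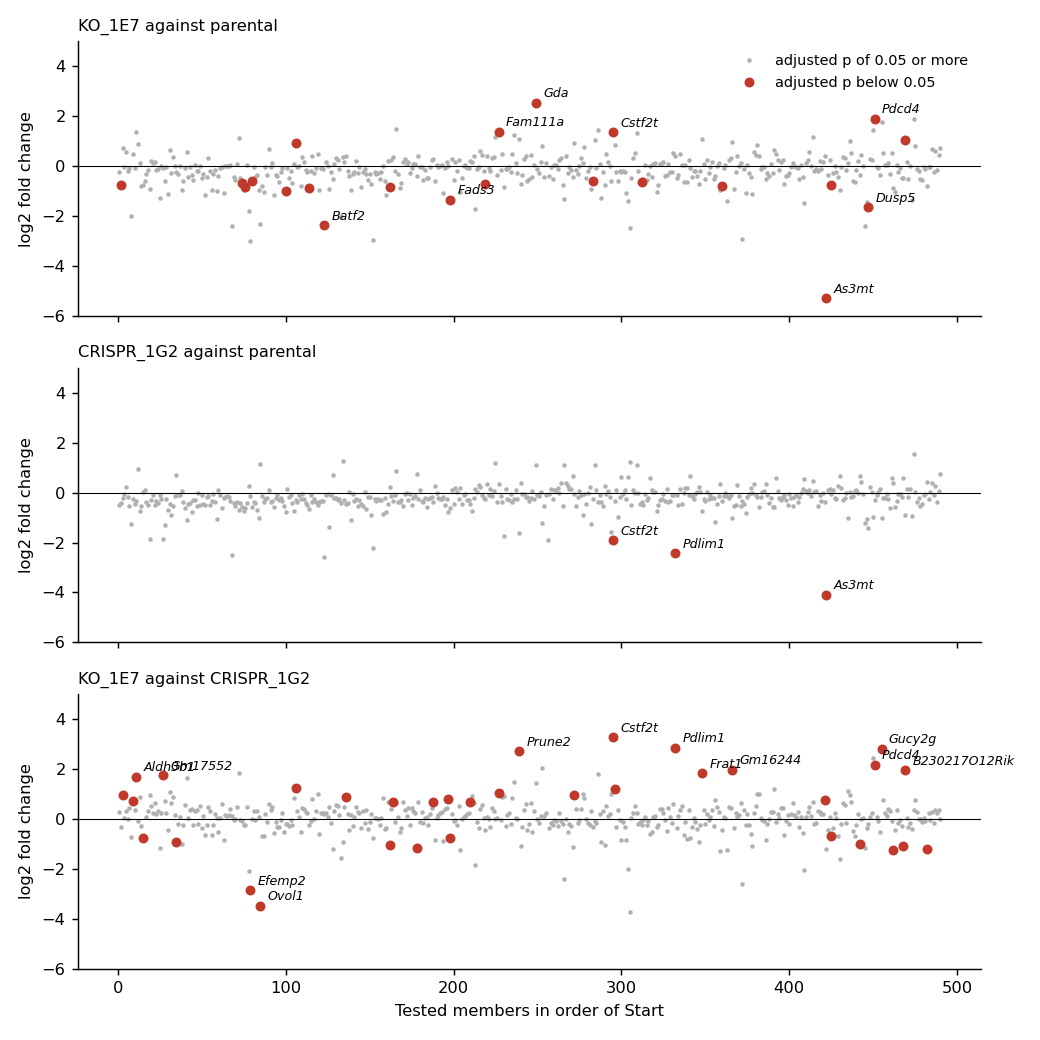
Log2 fold change (vertical axis) of each of the 490 tested members in order of start (horizontal axis), in KO_1E7 against parental, CRISPR_1G2 against parental and KO_1E7 against CRISPR_1G2, with red points for members past an adjusted p of 0.05. The 22, 3 and 34 red points are spread along the order, 9, 0 and 15 of them starting before 10 Mb.

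As3mt, which encodes the arsenite methyltransferase that methylates inorganic arsenic, was nearly lost in both clones. It lies on the plus strand at 46707443 to 46741095 (ENSMUSG00000003559). It had 0.0565, 0.0947 and 0.0298 CPM in KO_1E7 1, 2 and 3, 0.145, 0.0946 and 0.214 CPM in CRISPR_1G2 1, 2 and 3, and 2.95, 2.62 and 2.31 CPM in parental 1, 2 and 3. Every library of the clones lay below every parental library, and the clones overlapped each other. As raw reads these were 8 counts in all KO_1E7 libraries and 14 in all CRISPR_1G2 libraries, against 286 in all parental libraries. The level in KO_1E7 was 2.5% of the parental level (exact 95% interval 1.07% to 5.0%) and that in CRISPR_1G2 5.79% (3.12% to 9.87%), intervals that cover counting error only. The log2 fold change was -5.29 (SE 0.46, adjusted p = 0.00276) in KO_1E7 against parental and -4.08 (SE 0.42, adjusted p = 0.00574) in CRISPR_1G2 against parental. KO_1E7 against CRISPR_1G2 did not pass, at -1.21 (SE 0.50, adjusted p = 0.178). Of the 22 members called in KO_1E7 against parental it was the one that passed under all 20 alternatives, and in CRISPR_1G2 against parental it passed under 19, with an adjusted p of 0.0525 without CRISPR_1G2 1.

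The genes on either side of As3mt differed far less between the groups. Borcs7, which encodes a subunit of the BORC complex that positions lysosomes, begins 17537 bases before As3mt. It had 10.4, 7.05 and 8.86 CPM in KO_1E7, 4.9, 5.99 and 4.46 CPM in CRISPR_1G2 and 7.19, 6.54 and 6.09 CPM in parental 1, 2 and 3. Neither clone passed against parental, at log2 0.41 (adjusted p = 0.288) in KO_1E7 and -0.37 (adjusted p = 0.773) in CRISPR_1G2, while KO_1E7 against CRISPR_1G2 passed at 0.77 (adjusted p = 0.0476), a call that was lost under 11 of 20 alternatives. Cnnm2, whose product takes part in magnesium transport, begins 54153 bases after As3mt. It averaged 13.1 ± 2.29, 17.9 ± 2.44 and 16.8 ± 1.89 CPM in KO_1E7, CRISPR_1G2 and parental (SD, n = 3 each) and passed in no comparison. The next members out, Wbp1l and the nucleotidase gene Nt5c2, also passed in none. The near absence was thus seen at 1 gene of these 5. The promoters of As3mt and Borcs7 printed above hold 9 and 14 CG, and their part in this difference was not tested.

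Cstf2t separated the clones in opposite directions. It is an intronless gene, with 1 exon in GENCODE, whose product is a subunit of the cleavage stimulation factor that acts in 3′ end formation of mRNA, and it lies on the plus strand at 31082841 to 31086590 (ENSMUSG00000053536). It had 27.1, 25.4 and 26.6 CPM in KO_1E7 1, 2 and 3, 2.22, 2.24 and 3.72 CPM in CRISPR_1G2 1, 2 and 3, and 9.84, 7.95 and 13.2 CPM in parental 1, 2 and 3. The 3 groups did not overlap, with KO_1E7 highest and CRISPR_1G2 lowest. Its log2 fold change was 1.35 (SE 0.26, adjusted p = 0.0258) in KO_1E7 against parental, -1.92 (SE 0.27, adjusted p = 0.0282) in CRISPR_1G2 against parental and 3.27 (SE 0.28, adjusted p = 0.000734) in KO_1E7 against CRISPR_1G2. The difference between the clones passed under all 20 alternatives. Against parental it passed under 16 of 20 in KO_1E7 and 13 of 20 in CRISPR_1G2. The KO_1E7 call was lost without KO_1E7 1, KO_1E7 3, parental 1 or parental 2. That of CRISPR_1G2 was lost without CRISPR_1G2 1 or 2, any one KO_1E7 library or parental 3, and with the fit limited to the groups compared. The highest adjusted p-values were 0.111 and 0.237.

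Around Cstf2t the nearest members moved less. Asah2, which encodes neutral ceramidase, follows it and averaged 17.9 ± 2.30, 7.78 ± 2.19 and 9.90 ± 0.62 CPM in KO_1E7, CRISPR_1G2 and parental (SD, n = 3 each), and passed in KO_1E7 against CRISPR_1G2 at log2 1.20 (SE 0.23, adjusted p = 0.0141). Gldc, the glycine decarboxylase gene before it, stayed under 1 CPM in every library and passed in no comparison. The left-out genes Il33 and Uhrf2 precede Gldc, and on their far side Ranbp6, an importin-like gene, and 9930021J03Rik passed in none. Fas and Lipa on one side of the left-out Ifit group, and Pank1 and the mitotic kinesin gene Kif20b on its other side, also passed in none.

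Pdlim1, which encodes a PDZ and LIM domain protein of actin stress fibres, was low in CRISPR_1G2. It lies on the minus strand at 40221173 to 40271842. It had 15.9, 15.9 and 19.1 CPM in KO_1E7 1, 2 and 3, 1.34, 2.08 and 3.6 CPM in CRISPR_1G2 1, 2 and 3, and 14.3, 8.39 and 15.3 CPM in parental 1, 2 and 3. All CRISPR_1G2 libraries lay below those of both other groups. The log2 fold change was -2.43 (SE 0.37, adjusted p = 0.0495) in CRISPR_1G2 against parental, 2.85 (SE 0.38, adjusted p = 0.00423) in KO_1E7 against CRISPR_1G2, and 0.42 (SE 0.35, adjusted p = 0.502) in KO_1E7 against parental. The call against parental was at the threshold and was lost under 10 of 20 alternatives (highest adjusted p 0.304), among them those without CRISPR_1G2 1 or 2, parental 1 or 3 or any one KO_1E7 library. The difference between the clones passed under all 20. Its neighbours Hells, a chromatin remodelling gene, Tbc1d12 and the proline synthesis gene Aldh18a1 passed in no comparison.

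**Figure D4:**
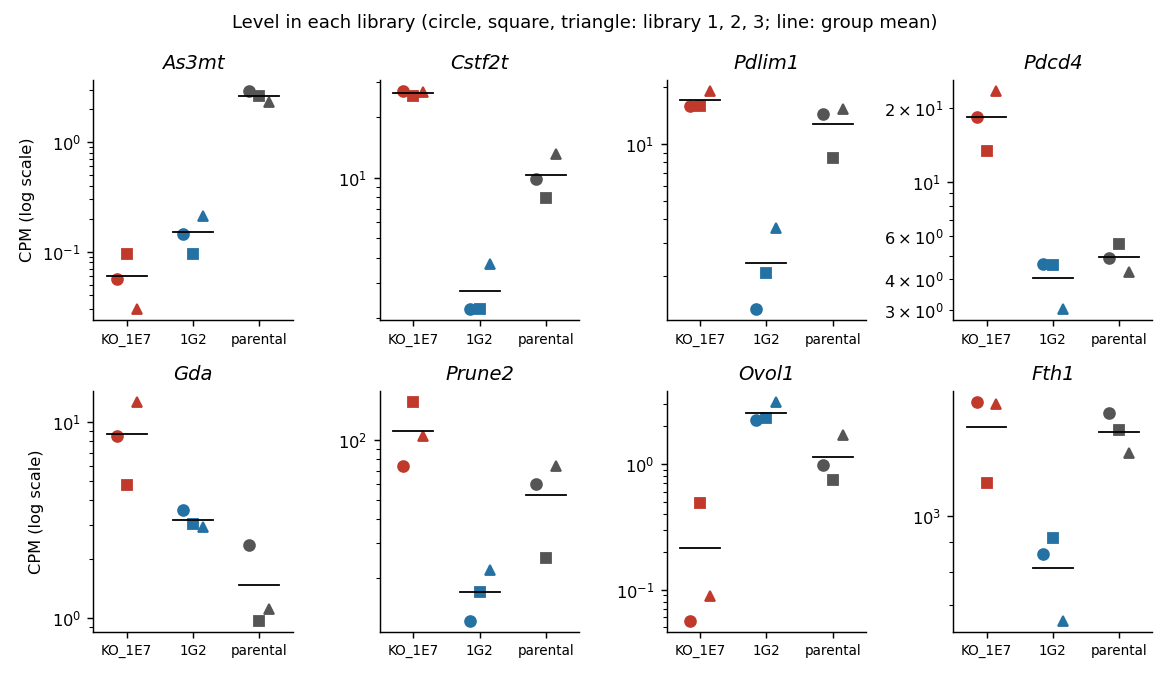
Level in CPM on a log scale (vertical axes) of 8 members in each library, with KO_1E7, CRISPR_1G2 and parental from left to right and a line at each mean. As3mt is low in both clones, Cstf2t has 3 separate groups, and Ovol1, Prune2 and Fth1 separate the clones with the parental libraries between or beside them.

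Pdcd4 and Gda were the members raised most in KO_1E7 against parental. Pdcd4, whose product binds eIF4A and restrains translation, lies on the plus strand at 53892231 to 53929861. It had 18.3, 13.3 and 23.5 CPM in KO_1E7 1, 2 and 3, 4.61, 4.57 and 3.02 CPM in CRISPR_1G2 1, 2 and 3, and 4.89, 5.6 and 4.28 CPM in parental 1, 2 and 3. KO_1E7 lay wholly above the others, which overlapped. For KO_1E7 the log2 fold change was 1.90 (SE 0.27, adjusted p = 0.0128) against parental and 2.18 (SE 0.27, adjusted p = 0.00343) against the other clone. CRISPR_1G2 stood at -0.28 (adjusted p = 0.898) beside parental. Its last exon overlaps Bbip1 on the other strand, but Bbip1 averaged 14.9 ± 1.26, 14.2 ± 1.80 and 15.4 ± 1.53 CPM in KO_1E7, CRISPR_1G2 and parental (SD, n = 3 each) and passed in none, as did Smc3, Rbm20 and Shoc2.

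Gda encodes guanine deaminase of purine breakdown. It had 8.56, 4.76 and 12.7 CPM in KO_1E7 1, 2 and 3, 3.56, 3.03 and 2.93 CPM in CRISPR_1G2 1, 2 and 3, and 2.35, 0.966 and 1.11 CPM in parental 1, 2 and 3. The 3 groups did not overlap, with parental lowest. KO_1E7 against parental passed at log2 2.55 (SE 0.45, adjusted p = 0.0208), while CRISPR_1G2 against parental stood at 1.10 (adjusted p = 0.604) and KO_1E7 against CRISPR_1G2 at 1.45 (adjusted p = 0.0595). The call was lost without KO_1E7 1, KO_1E7 3, parental 2 or parental 3. Its neighbours Zfand5, Anxa1, 1110059E24Rik and Abhd17b passed in no comparison.

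**Figure D5:**
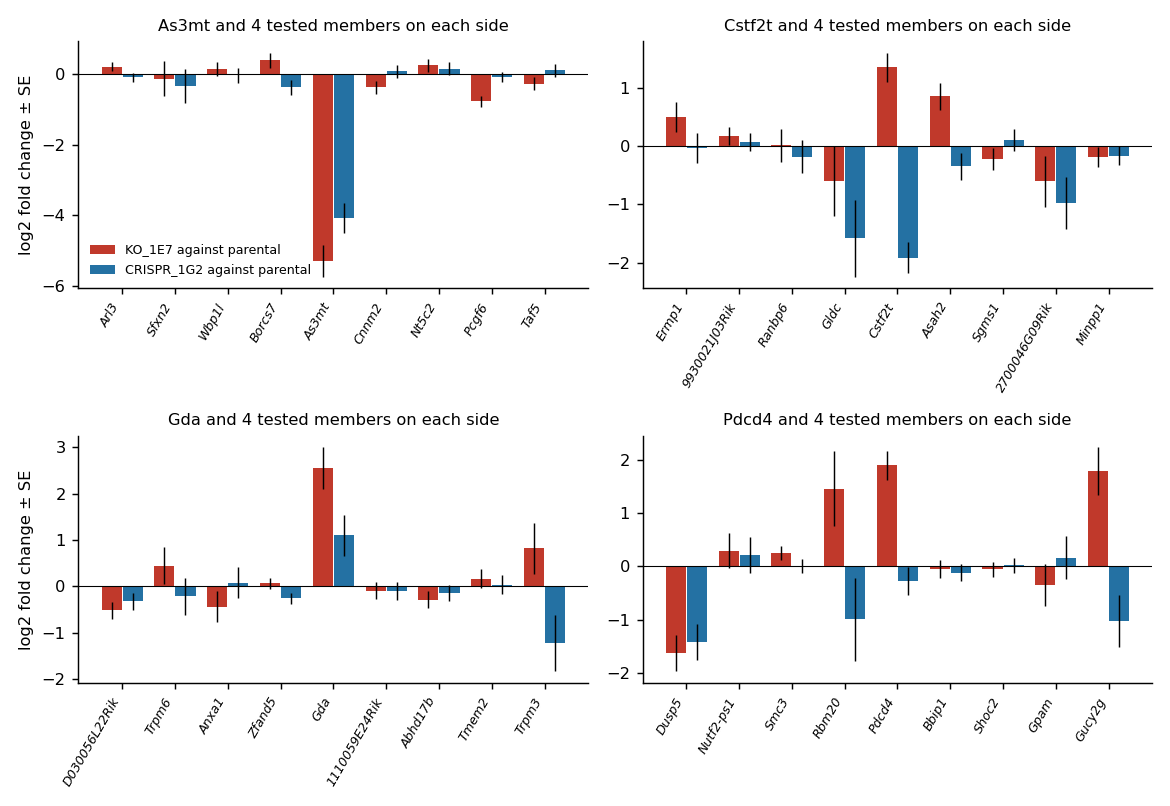
Log2 fold change with its SE (vertical axes) in KO_1E7 against parental (red) and CRISPR_1G2 against parental (blue) for As3mt, Cstf2t, Gda and Pdcd4, each with 4 tested members before and 4 after it in order of start. As3mt stands at -5.29 and -4.08 between neighbours close to 0, and Cstf2t is the member of its stretch that was called in opposite directions in the clones.

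The other members that rose in KO_1E7 against parental were Fam111a, Cdc42ep2 and B230217O12Rik. Fam111a, a nuclear protease gene linked to DNA replication and to restriction of viruses, had 71.9, 73.4 and 80.3 CPM in KO_1E7, 44.6, 38.1 and 26.5 CPM in CRISPR_1G2 and 30.4, 34.9 and 21.6 CPM in parental 1, 2 and 3. The rise in KO_1E7 was log2 1.38 (adjusted p = 0.0173) against parental and 1.05 (adjusted p = 0.0209) against CRISPR_1G2. KO_1E7 lay wholly above, and the other groups overlapped. Cdc42ep2, an effector of the small GTPase Cdc42, averaged 9.68 ± 0.97, 4.09 ± 0.016 and 5.02 ± 0.32 CPM in KO_1E7, CRISPR_1G2 and parental (SD, n = 3 each), or log2 0.95 (adjusted p = 0.0235) and 1.24 (adjusted p = 0.00502) for KO_1E7 against parental and against CRISPR_1G2. The long non-coding RNA B230217O12Rik averaged 10.2 ± 2.76, 2.63 ± 0.29 and 4.88 ± 0.56 CPM in the same groups, or log2 1.06 (adjusted p = 0.0462) and 1.95 (adjusted p = 0.00407). None of the 3 passed in CRISPR_1G2 against parental.

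Of the 16 members that fell in KO_1E7 against parental, those with the largest changes after As3mt follow. Dusp5, the nuclear ERK phosphatase gene that ERK signalling itself induces, had 19.1, 29.5 and 19.1 CPM in KO_1E7, 31.5, 25.3 and 21.7 CPM in CRISPR_1G2 and 69.2, 39.1 and 101 CPM in parental 1, 2 and 3. Both clones lay below parental, and parental 3 was the highest. It fell by 1.63 on the log2 scale (SE 0.34, adjusted p = 0.0344) in KO_1E7 and stood at -1.42 (SE 0.34, adjusted p = 0.283) in CRISPR_1G2. Fads3, a fatty acid desaturase family gene, had 27.1, 30.4 and 24.0 CPM in KO_1E7, 46.7, 46.8 and 43.3 CPM in CRISPR_1G2 and 82.5, 48.1 and 77.0 CPM in parental 1, 2 and 3. The groups did not overlap, and it passed at log2 -1.35 (SE 0.20, adjusted p = 0.0147) in KO_1E7 against parental and -0.75 (adjusted p = 0.0442) in KO_1E7 against CRISPR_1G2.

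Batf2, an interferon-induced AP-1 family transcription factor gene, had 0.367, 0.133 and 0.149 CPM in KO_1E7, 0.182, 0.189 and 0.183 CPM in CRISPR_1G2 and 0.956, 0.635 and 1.75 CPM in parental 1, 2 and 3. The difference was log2 -2.37 (SE 0.53, adjusted p = 0.039) in KO_1E7 and stood at -2.57 (SE 0.55, adjusted p = 0.189) in CRISPR_1G2. Its exons overlap those of Arl2 on the other strand, which had far more counts, and the libraries do not mark strand, so the value of Batf2 is uncertain. Neat1, the long non-coding RNA that builds nuclear paraspeckles, had 399, 433 and 338 CPM in KO_1E7, 483, 522 and 357 CPM in CRISPR_1G2 and 756, 613 and 979 CPM in parental 1, 2 and 3. Both clones lay below parental, at log2 -1.005 (adjusted p = 0.035) in KO_1E7 and -0.79 (adjusted p = 0.369) in CRISPR_1G2. Its neighbour Malat1, another abundant nuclear RNA, had 1170, 940 and 1100 CPM in KO_1E7, 1060, 1310 and 2260 CPM in CRISPR_1G2 and 1560, 1190 and 3880 CPM in parental 1, 2 and 3. Malat1 did not pass, and its highest libraries were the third ones of CRISPR_1G2 and parental.

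Znhit2 and Ccdc85b, both single-exon genes of the proximal stretch, also fell in KO_1E7. Ccdc85b had 23.6, 22.7 and 21.1 CPM in KO_1E7, 29.7, 27.4 and 22.3 CPM in CRISPR_1G2 and 39.8, 40.4 and 41.0 CPM in parental 1, 2 and 3, or log2 -0.84 (adjusted p = 0.0169) in KO_1E7 against parental. Znhit2 averaged 12.01 ± 1.82, 14.04 ± 2.73 and 21.9 ± 1.10 CPM in KO_1E7, CRISPR_1G2 and parental (SD, n = 3 each), or log2 -0.87 (adjusted p = 0.0375). In both genes all clone libraries lay below all parental libraries. 2700081O15Rik, whose exons overlap Rtn3, averaged 21.7 ± 2.96, 45.03 ± 2.71 and 38.5 ± 3.63 CPM in the same groups and was low in KO_1E7 alone. It passed at log2 -0.83 (adjusted p = 0.0194) against parental and -1.05 (adjusted p = 0.0045) against CRISPR_1G2. The remaining 8, Marveld1, Pcgf6, Mrpl21, Ccdc86, AI837181, Pcgf5, Mus81 and Rcl1, fell by between 0.58 and 0.78 on the log2 scale.

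The clones differed from each other at 34 members, among them several that neither clone moved past the threshold against parental. Prune2, a BCH domain protein gene, had 74.3, 156 and 105 CPM in KO_1E7, 12.2, 17.0 and 22.0 CPM in CRISPR_1G2 and 59.7, 25.3 and 74.1 CPM in parental 1, 2 and 3. It passed at log2 2.71 (SE 0.44, adjusted p = 0.00753) between the clones, and CRISPR_1G2 lay below both other groups. Gucy2g, a receptor guanylyl cyclase gene, averaged 1.75 ± 0.18, 0.242 ± 0.17 and 0.506 ± 0.064 CPM in KO_1E7, CRISPR_1G2 and parental (SD, n = 3 each), or log2 2.82 (adjusted p = 0.00975). Fth1, the ferritin heavy chain gene that stores iron and the member with the highest level per length (mean 1403 RPKM), had 1580, 1140 and 1570 CPM in KO_1E7, 859, 917 and 657 CPM in CRISPR_1G2 and 1510, 1410 and 1290 CPM in parental 1, 2 and 3. CRISPR_1G2 lay wholly below both other groups. It passed at log2 0.82 (SE 0.18, adjusted p = 0.0235) between the clones, and CRISPR_1G2 against parental stood at -0.79 (adjusted p = 0.253).

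Lower in KO_1E7 than in CRISPR_1G2 were Ovol1 and Efemp2, both in the proximal stretch. Ovol1, a transcription factor gene of epithelial differentiation, had 0.0565, 0.493 and 0.0895 CPM in KO_1E7, 2.22, 2.33 and 3.11 CPM in CRISPR_1G2 and 0.984, 0.745 and 1.7 CPM in parental 1, 2 and 3. The 3 groups did not overlap, and it passed at log2 -3.48 (SE 0.70, adjusted p = 0.0166) between the clones. Against parental it did not pass, at -2.32 (adjusted p = 0.0839) in KO_1E7 and 1.16 (adjusted p = 0.737) in CRISPR_1G2. Efemp2, which encodes the elastic fibre protein fibulin-4, had 0.706, 5.59 and 0.895 CPM in KO_1E7, 21, 19.5 and 12.2 CPM in CRISPR_1G2 and 20.8, 24.2 and 13.6 CPM in parental 1, 2 and 3. It passed at log2 -2.84 (SE 0.72, adjusted p = 0.0366), and KO_1E7 2 stood above the other KO_1E7 libraries in both genes. Without KO_1E7 2 the log2 fold changes were -5.06 for Ovol1 and -4.45 for Efemp2, and the Efemp2 call was also lost without CRISPR_1G2 1 or 2 or parental 1 or 2. Epithelial keratin Krt7 and Epcam were also lower in KO_1E7, at 4.01 to 5.31 and 0.746 to 3.43 CPM, than in CRISPR_1G2, at 13.7 to 67.2 and 4.95 to 16.6 CPM, and in parental, at 17.7 to 30.5 and 3.53 to 7.04 CPM. Their part in these values was not tested.

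Further members that separated the clones were the actin-binding gene Ablim1, at 17.8 ± 3.07, 37.7 ± 1.49 and 24.98 ± 3.30 CPM in KO_1E7, CRISPR_1G2 and parental (SD, n = 3 each) and log2 -1.09 (adjusted p = 0.00655) between the clones, and the peroxidase gene Prdx5, at 134 ± 20.1, 73.1 ± 9.89 and 101 ± 4.71 CPM and log2 0.88 (adjusted p = 0.00929). The carnitine palmitoyltransferase gene Cpt1a of mitochondrial fatty acid uptake had 70.5, 69.9 and 73.4 CPM in KO_1E7, 35.3, 44.1 and 29.7 CPM in CRISPR_1G2 and 44.7, 56.9 and 26.0 CPM in parental 1, 2 and 3. The clones differed by log2 0.97 (adjusted p = 0.0462). Smarca2, an ATPase gene of the SWI/SNF chromatin remodelling complexes, averaged 52.2 ± 0.90, 26.9 ± 6.41 and 27.7 ± 6.49 CPM in the same groups and passed at log2 0.96 (adjusted p = 0.0275). Exons shared with a gene of more counts make Gng3, Gm16244 and Gm17552 uncertain, and Nudt8 is listed under a pair of overlapping identifiers.

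By role, the members of 7 lists, drawn up with earlier results of these data known, were mostly not called. Of 18 tested genes of lipid and sterol metabolism, 0 were higher and 1 (Fads3) lower in KO_1E7 against parental, with a median of 0.25 relative to all genes, and in CRISPR_1G2 against parental 0 passed at a median of -0.14. Amino acid, redox and mitochondrial genes, 23 tested, had 0 calls against parental in either clone, with medians of -0.14 in KO_1E7 and -0.36 in CRISPR_1G2, and 2 higher (Fth1 and Prdx5) between the clones. DNA replication, repair and mitosis, 22 tested, had 1 lower gene in KO_1E7, the nuclease gene Mus81, with medians of 0.13 in KO_1E7 and -0.26 in CRISPR_1G2. The 33 tested signalling and transcription regulators had 1 lower gene in KO_1E7 (Dusp5), with medians of 0.02 and -0.12, and Frat1 and Smarca2 higher between the clones.

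The remaining lists had medians below those of all genes in both clones. Cytoskeleton, adhesion and matrix, 22 tested, had 0 calls in KO_1E7 and 1 lower (Pdlim1) in CRISPR_1G2, with medians of -0.18 and -0.11, and between the clones 1 higher (Pdlim1) and 3 lower (Ablim1, Add3 and Efemp2). RNA processing, translation and nuclear RNA, 20 tested, had 1 higher (Cstf2t) and 1 lower (Neat1) in KO_1E7 and 1 lower (Cstf2t) in CRISPR_1G2, with medians of -0.16 and -0.28. Cell death and immune ligands, 8 tested, had 1 higher (Pdcd4) and 2 lower (Batf2 and Dusp5) in KO_1E7 and 0 in CRISPR_1G2, with medians of -0.52 and -0.32. This list also holds genes of other roles, such as the importin-like gene Ranbp6, and Dusp5 is on the signalling list as well. In CRISPR_1G2 all 7 medians were below 0, as was that of the whole chromosome at -0.23. The immune checkpoint ligand gene Cd274, on that last list, had 2.68, 2.25 and 1.58 CPM in KO_1E7, 2.51, 3.91 and 5.77 CPM in CRISPR_1G2 and 4.4, 2.4 and 9.17 CPM in parental 1, 2 and 3, and passed in no comparison.

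Some members varied more within groups than between them. The death receptor gene Fas, a p53 target, had 0.424, 0.265 and 0.686 CPM in KO_1E7, 0.363, 0.347 and 17.2 CPM in CRISPR_1G2 and 0.437, 0.193 and 6.95 CPM in parental 1, 2 and 3. It was high in CRISPR_1G2 3 and parental 3 alone, where Mdm2 had 3910 and 1860 CPM against 646 to 1170 CPM elsewhere. The stearoyl-CoA desaturase gene Scd2 had 2400, 2310 and 2650 CPM in KO_1E7, 2940, 2800 and 461 CPM in CRISPR_1G2 and 1720, 2690 and 506 CPM in parental 1, 2 and 3. Fads2, a desaturase of polyunsaturated fatty acid synthesis, had 196, 157 and 182 CPM in KO_1E7, 217, 217 and 32.0 CPM in CRISPR_1G2 and 159, 236 and 38.6 CPM in parental 1, 2 and 3. Both were low in the same 2 libraries, as was the acyl-CoA synthetase gene Acsl5, at 56.1 CPM in CRISPR_1G2 3 and 99.5 CPM in parental 3 against 236 to 321 CPM elsewhere. Hmgcs1 had 71.9 and 51.4 CPM in those libraries against 212 to 600 CPM elsewhere. Nfkb2, an NF-kB subunit gene, was highest there, at 315 and 264 CPM against 124 to 145 CPM elsewhere. KO_1E7 3, the third library with NSG in its name in that clone, did not share these values, with 0.686 CPM of Fas and 2650 CPM of Scd2.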

How the data were processed

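Per gene, raw read counts without normalization were deposited by the authors for 9 libraries in 3 groups. The labels' protocols name oligo-dT selection and the NEBNext Ultra II RNA kit, which keeps no strand. The submitters' processing notes name bcl2fastq 2.17, STAR 2.5.2b, featureCounts in Subread 1.5.2, DESeq2 and the build GRCm38. Annotation release and strand setting are not given in the sources used here. Coordinates are those of the deposited tables. Spike-in controls (0.344% to 0.820% of counts) were left out.

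Groups and replicate numbers come from the sample titles. All 15766 genes passing edgeR's filter by group were fitted in R 4.3.3 with edgeR 4.0.16 (robust quasi-likelihood F-test, TMM scaling, 9 libraries in 1 fit), and Benjamini-Hochberg adjustment ran over all of them. Of the members 490 were tested and 6 were not (Kcnk4, Ms4a6c, C130060C02Rik, 4430402I18Rik, Gm15801 and Adra2a). SE is the size of the log2 fold change divided by the square root of F. Per-library medians use log2 CPM with a prior count of 2. With 3 libraries a side the smallest exact permutation p is 0.1, so single genes have no such test. Deviations from the group means of same-numbered CRISPR_1G2 and parental libraries correlated at 0.24, 0.47 and 0.65. Those of CRISPR_1G2 1 and parental 2, which share a string in their names, correlated at 0.54. The numbers thus do not pair these libraries, and the correlations were read from the data and not from the labels. Same-numbered libraries of KO_1E7 and either other group correlated at -0.05 to 0.15. Between libraries of a group the chi-square per gene was 5.72 to 449, so none was counted as a duplicate. The labels do not state separate cultures for the libraries of a group, and p-values then reflect spread among these samples only, possibly of technical origin.

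Members, role lists and alternatives (DESeq2 1.42.0, other scaling and filters, terms for replicate number and NSG, libraries left out, other windows, GC content) were chosen with earlier results of these data known. Named genes were the called members with the largest changes in each comparison, called or abundant members of the role lists, and neighbours of the most changed and the left-out genes. Some genes are not reported here. The fit was tested on simulated data.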

Additional observations from a re-analysis of the deposited data

Results flagged for a closer look

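Cstf2t was called in opposite directions in the clones, higher in KO_1E7 and lower in CRISPR_1G2, each against the same parental libraries. The difference was tested directly between the clones with edgeR's quasi-likelihood test. That contrast comes from the same fit and libraries as the opposite calls, so it is no separate evidence for them. KO_1E7 against CRISPR_1G2 stood at log2 3.27 (adjusted p = 0.000734), with all 3 KO_1E7 libraries above all 3 CRISPR_1G2 libraries.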

How the results depend on the processing

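No chromosome median and no called gene named in the text changed sign under an alternative that was run, but some 5 Mb windows near 0 did in the comparisons with KO_1E7. Among them, with GC content removed, KO_1E7 against parental became -0.06 from 50 to 55 Mb (0.05) and 0.02 from 10 to 15 Mb (-0.04), and KO_1E7 against CRISPR_1G2 became -0.03 from 50 to 55 Mb (0.09). The median of chromosome 19 in CRISPR_1G2 against parental stayed between -0.25 and -0.18. In KO_1E7 against parental it was -0.12 without parental 3 and CRISPR_1G2 3, and between -0.127 and -0.0628 with 1 library left out. The lowest 5 Mb window of KO_1E7 against parental, -0.22, became -0.41 in windows of 2.5 Mb, and the highest of KO_1E7 against CRISPR_1G2, 0.28, became 0.16 in windows of 10 Mb. In windows of 2.5 Mb, several with under 20 members, the highest between the clones was 0.91 and the lowest of CRISPR_1G2 against parental -0.68, both beyond 10 Mb. Counts of called members moved far more. In KO_1E7 against parental (22) DESeq2 gave 63, no filter on low counts 13, a term for NSG 57, leaving out the third library of each group 44, leaving out parental 3 and CRISPR_1G2 3 95, and leaving out KO_1E7 2 as well 120, with 1 to 47 when 1 library was left out. In CRISPR_1G2 against parental (3) DESeq2 gave 16, a fit of only those groups 1, and leaving out parental 3, CRISPR_1G2 3 and KO_1E7 2 gave 13, with 0 to 3 when 1 library was left out. In KO_1E7 against CRISPR_1G2 (34) the same settings gave 73 with DESeq2, 81 with the NSG term, 66, 111 and 150, with 10 to 41 when 1 library was left out. A replicate block gave 40 members in KO_1E7 against parental, 3 in CRISPR_1G2 against parental and 61 between the clones. The same 3 members passed with the block in CRISPR_1G2 against parental. In that comparison CRISPR_1G2 1 correlated more with parental 2 (0.54) than with parental 1 (0.24). With KO_1E7 some same-numbered pairs correlated below 0.1. The block is thus not a paired analysis in any comparison. The cause of these moves was not tested. Leaving out parental 3, CRISPR_1G2 3 and KO_1E7 2 together and the GC correction were chosen after seeing the data. At 27898705 to 51878289 counts per library, genes such as As3mt in the clones, with 1 to 7 counts a library, have few reads.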
